A study of Mus musculus with 3 samples.

Results

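Genes of the ribbon synapse were followed through the cell types of developing mouse retina: *Ctbp2*, *Bsn*, *Pclo*, *Cacna1f*, *Cacna2d4*, *Cabp4*, *Unc13b*, *Stx3*, *Cplx3* and *Cplx4*. These 10 genes were chosen by name from the 19946 genes listed in at least 1 of 3 libraries, and all 10 were listed in each library. Photoreceptors of newborn retina (P0) were set against rods, cones and bipolar cells of retina at postnatal day 14 (P14), the types that carry ribbons in the mature retina.

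A ribbon synapse holds its vesicles on a plate, the ribbon, above the release site, and it releases glutamate continuously at a rate graded by the membrane voltage. The plate is built of RIBEYE, a product of *Ctbp2*. Bassoon (*Bsn*) anchors it, and Piccolo (*Pclo*) is a related scaffold protein. Calcium enters through an L-type channel with the pore subunit *Cacna1f* and the α2δ auxiliary subunit *Cacna2d4*, and the calmodulin-like protein *Cabp4* tunes that channel. Fusion uses the priming factor *Unc13b*, the syntaxin *Stx3*, and the complexins *Cplx3* and *Cplx4* in place of *Cplx1* and *Cplx2*. In mice cones are born before birth and rods into the first days after it, and their terminals form in the weeks that follow.

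The data were 3 libraries of 10x 3′ single-cell RNA sequencing, each of pooled and barcoded samples (MULTI-seq). The P0 and P14 libraries each held 5 littermate retinas of a C57BL/6 / CD1 cross that carries a targeted *Sstr2* deletion, 1 of *Sstr2* +/+, 2 of +/- and 2 of -/-, named wild type, heterozygous and knockout here. The line came from 1 breeding pair of heterozygous C57BL/6NCrl mice that was outbred to CD1, with the F1 intercrossed. The explant library held 8 wild type CD1 samples that were dissected at embryonic day 14 and cultured for 6 days with 0, 5, 50 or 500 nM of a small molecule *Sstr2* agonist, 2 samples at each dose. Each sample is called a retina or an explant, and how many animals a sample held was not given in the sources used here.

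The libraries held 5706 P0, 3298 P14 and 5607 explant cells, with 8822880 to 10793649 UMIs (unique transcript molecules) per P0 retina, 1266730 to 5886669 per P14 retina and 1281682 to 4237324 per explant. The explant cells held 1001 to 2499 genes each, an upper limit that was not seen at P0 (up to 7324) or P14 (up to 8002). The libraries shared 4 to 9 cell barcodes per pair. Cell types were those the study assigned to clusters of these same cells, and they carried their defining markers: the rod transducin *Gnat1* was at 4218 CPM (UMIs of a gene in a sum of cells scaled to 1000000 UMIs) in P14 rods, *Trpm1* at 3033 CPM in P14 bipolar cells, and *Otx2* and *Neurod1* at 807 and 2385 CPM in P0 photoreceptors. The P0 photoreceptors were not divided into rods and cones: they held the rod factor *Nrl* at 362 CPM and the cone opsin *Opn1sw* at 226 CPM. The targeted gene, *Sstr2*, was checked in P0 neurogenic progenitors. Its levels there were 112 CPM for wild type, 189 and 248 for heterozygous retinas, and 294 and 375 for those labelled knockout, so the 3′ counts were not lower there. Where the deletion lies in the gene was not given in the sources used here, and a 3′ tag outside it checks nothing. These retinas are therefore called "labelled knockout" below.

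Where the sequences bear on the counts, *Ctbp2* comes first. On GRCm38 with the GENCODE M21 annotation, *Ctbp2* lies on the minus strand of chromosome 7 from 132987563 to 133124354. The transcript that starts at 133015248 encodes 988 codons, the length class of RIBEYE, and the transcript that starts at 133123367 encodes 445 codons, the length class of the transcriptional co-repressor CtBP2. The last exons of both end at 132988351 on their upstream side and overlap almost fully, so 3′ counts cannot tell RIBEYE from CtBP2, and every *Ctbp2* value below is the sum of both. Upstream sequence (RefSeq, GRCm38.p6) was held for 7 of the 10 genes in 8 windows of 250 bases before a start site. They were searched on both strands for TAATCC, the core recognised by the photoreceptor factor CRX and its relative OTX2, and for TGCTGA, a core of sites for the rod factor NRL. TAATCC was in 1 of the 8 windows, that of the internal *Ctbp2* start, against 6.25% of 32851 windows of all genes, and TGCTGA in 1 of the 8, that of *Cplx3*, against 16.1%. Of the 250 bases before the internal *Ctbp2* start, 243 are annotated exon of *Ctbp2* transcripts, so that window is not only upstream sequence. A match describes the letters of the window and shows no bound site, and windows without a match say nothing of either factor. The *Ctbp2* match, 121 bases before the internal start at chr7:133015351-133015380 on the minus strand, and the windows of *Cplx3* and *Stx3*, the 2 genes with a window whose levels differed most between rods and bipolar cells, read as follows, 5′ to 3′, with matches in capitals (both in reverse complement).
Ctbp2, 30 bases: taaggtttcagaGGATTAataatttaggtc
Cplx3, chr9:57606282-57606531, minus strand: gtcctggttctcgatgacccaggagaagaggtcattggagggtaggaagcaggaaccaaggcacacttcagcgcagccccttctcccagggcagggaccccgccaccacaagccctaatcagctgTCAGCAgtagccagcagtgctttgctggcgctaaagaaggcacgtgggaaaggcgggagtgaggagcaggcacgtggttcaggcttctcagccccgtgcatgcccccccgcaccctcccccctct
Stx3, chr19:11819404-11819653, minus strand: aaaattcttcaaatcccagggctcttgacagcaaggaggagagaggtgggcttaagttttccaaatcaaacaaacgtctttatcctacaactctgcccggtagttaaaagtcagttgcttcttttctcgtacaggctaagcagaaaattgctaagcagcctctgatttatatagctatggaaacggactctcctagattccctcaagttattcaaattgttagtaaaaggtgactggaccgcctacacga

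The first question was which ribbon genes newborn photoreceptors already express and which are added by P14. Between P0 photoreceptors and P14 rods, 8 of the 10 genes rose, *Cplx3* fell and *Pclo* did not pass the test. In P14 cones and in P14 bipolar cells all 10 were higher than in P0 photoreceptors. The rises spanned from less than 1 to over 8 on the log2 scale: *Cabp4*, *Cplx4* and *Cacna1f* were close to absent at P0, while *Ctbp2*, *Pclo* and *Cplx3* were already abundant. The counts were UMIs summed per retina and cell type, tested by edgeR (quasi-likelihood), with p adjusted after Benjamini and Hochberg for all genes tested and a threshold of 0.05. In these comparisons 72.8% of the 9409 genes tested in rods passed (36.8% higher and 36% lower), as did 56.3% of 7496 in cones (25% higher and 31.2% lower) and 67.4% of 9357 in bipolar cells (33.4% higher and 34% lower), so a call alone is common and the sizes carry the description. The median change was 2.63 in rods, 2.23 in cones and 2.80 in bipolar cells for the 10 genes, against 0.02, -0.11 and -0.03 for all genes tested. *Cacna1f* and *Cabp4*, and in the cone comparison *Cplx4*, reached the filter on low counts in no P0 retina and entered the test only through P14 cells. The filter thus set their direction, and their values are a description. The counts and medians above include these genes. The 3 comparisons share the P0 sums, and age and library cannot be told apart in them. No P0 cells were annotated as bipolar cells. In the bipolar comparison cell type also cannot be told apart from age and library, and a change there is only a difference in level.

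**Figure D1:**
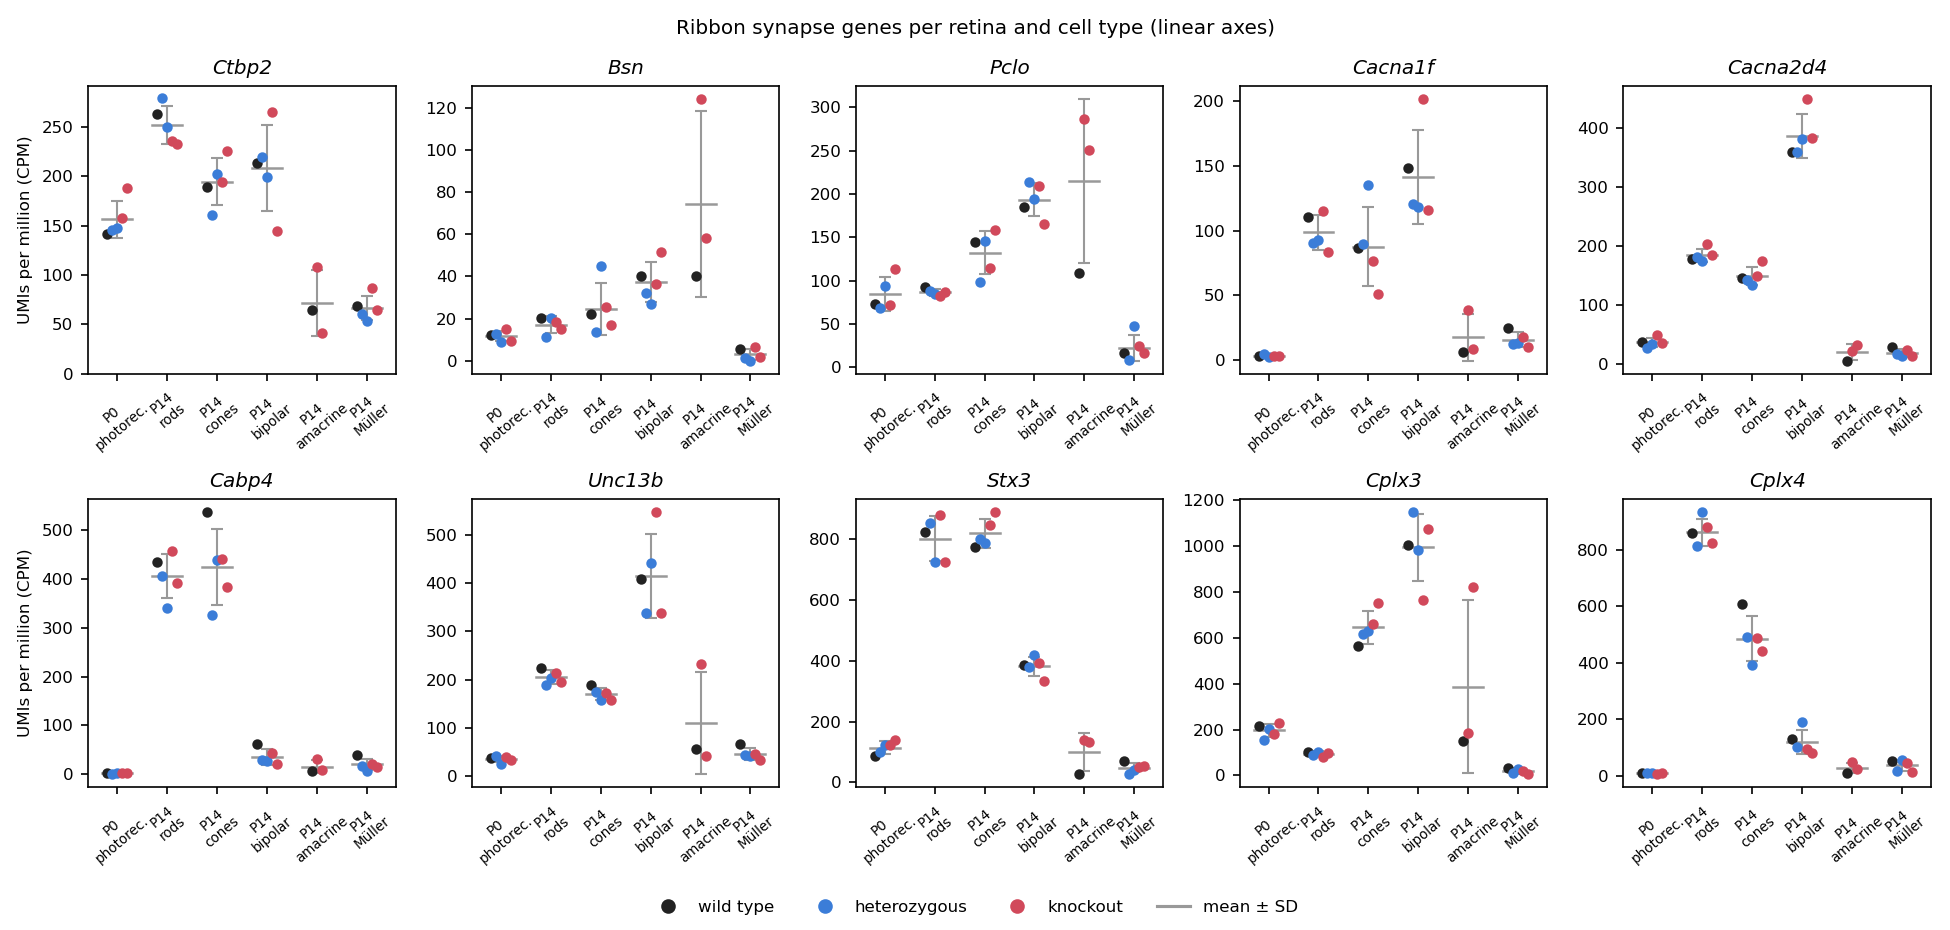
Level of each gene (CPM, linear axes) in P0 photoreceptors and 5 cell types at P14; each point is 1 retina, coloured by its genotype label, and bars give the mean and SD (n = 5, amacrine cells n = 3). *Cabp4* and *Cplx4* are near 0 at P0 and high in rods and cones, and *Cplx3* is low in rods and high in cones and bipolar cells.

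**Figure D2:**
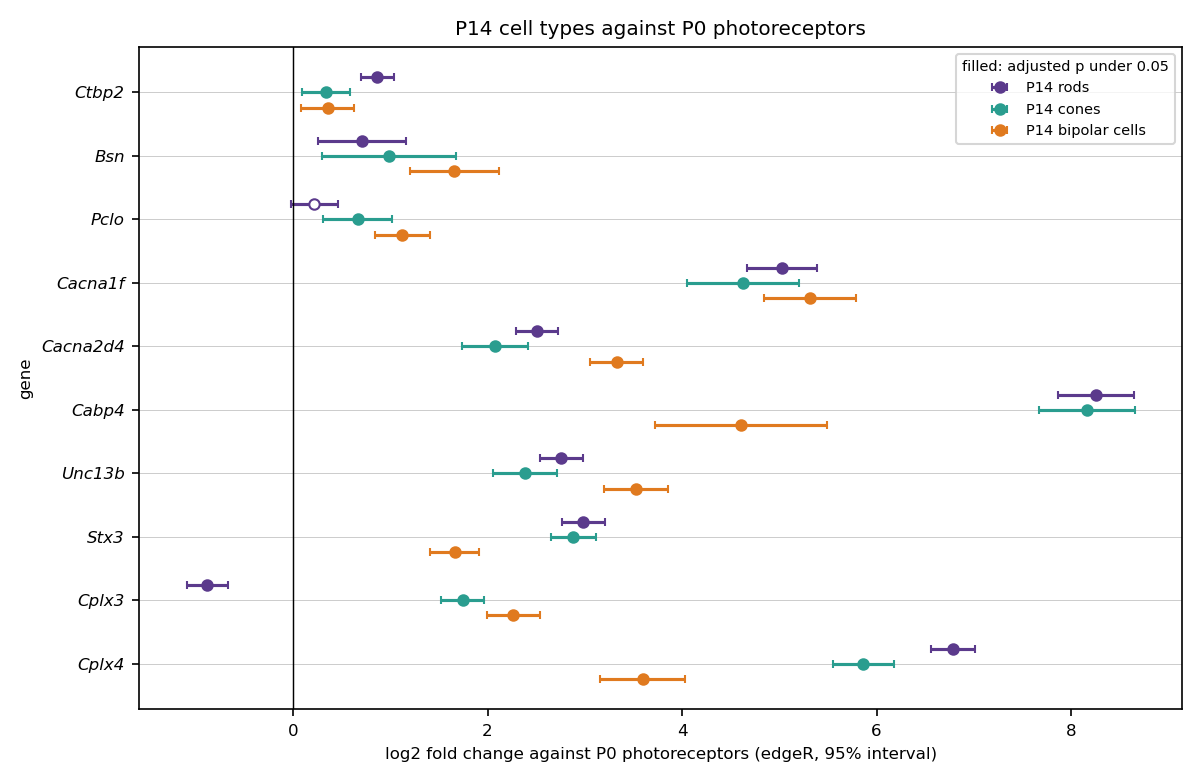
Change of the 10 genes in P14 rods, cones and bipolar cells against P0 photoreceptors on the log2 scale, with 95% intervals of the edgeR fit; filled points passed the threshold. *Cabp4* in rods lies furthest to the right at 8.26, and *Cplx3* in rods is the only point below 0, at -0.88.

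Of the scaffold genes, *Ctbp2* had 142 CPM in the wild type P0 photoreceptors, 145 and 148 in the heterozygous and 158 and 188 in those labelled knockout. In P14 rods the same order of genotypes gave 263, 279.6, 250.2, 236 and 232 CPM. Every rod value was above every P0 value, and the rise was 0.87 on the log2 scale (SE 0.08, adjusted p = 5.81e-09, edgeR). Cones, with 161 to 226 CPM, and bipolar cells, with 144 to 265 CPM, overlapped P0 in range, with changes of 0.34 (SE 0.12, edgeR adjusted p = 0.0191) and 0.36 (SE 0.13, edgeR adjusted p = 0.0196). Both of these calls were lost under some alternatives. In bipolar cells *Ctbp2* was lost in 7, with edgeR adjusted p from 0.0519 with no filter on low counts to 0.101 without the first retina labelled knockout at P14. In cones it was lost in 2, with no filter on low counts (edgeR adjusted p = 0.188) and without the 5% of cells with the most UMIs (0.0547). *Bsn* was sparse in all of them, at 9.03 to 15.2 CPM in P0 photoreceptors, 11.3 to 20.5 in rods, 13.4 to 45.0 in cones and 26.9 to 51.7 in bipolar cells. Its changes were 0.71 (SE 0.22, adjusted p = 0.00634), 0.99 (SE 0.33, adjusted p = 0.0138) and 1.66 (SE 0.22, adjusted p = 7.77e-07) by edgeR. That in cones rests on 27 UMIs. It was lost without a filter on low counts (edgeR adjusted p = 0.0509) and without the retinas labelled knockout (edgeR adjusted p = 0.066). *Bsn* in cones was tested in only 5 of the 10 fits that left out a retina. Bipolar cells did not overlap P0 photoreceptors in *Bsn*, whereas rods and cones did.

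*Pclo* was the gene closest to its P14 rod level at birth. P0 photoreceptors had 72.6, 68.3, 94.0, 72.0 and 114 CPM, and rods had 92.5, 88.6, 84.2, 81.7 and 86.5 CPM, a change of 0.22 with a 95% interval of -0.02 to 0.46 (edgeR adjusted p = 0.0961). The rod range lies inside the P0 range. *Pclo* passed in 3 alternatives: the change was 0.26 with no filter on low counts (edgeR adjusted p = 0.0388), 0.36 without the retinas labelled knockout (edgeR adjusted p = 0.0174) and 0.34 without the second P0 retina labelled knockout, the one at 114 CPM (edgeR adjusted p = 0.0051). Bipolar cells, at 166 to 213 CPM, were above all P0 values, with a difference of 1.12 (SE 0.14, edgeR adjusted p = 2.08e-07). In cones, at 98.3 to 158 CPM, *Pclo* rose by 0.67 (SE 0.17, edgeR adjusted p = 0.00185).

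Of the 2 calcium channel subunits, only the pore subunit went from traces to clear expression. *Cacna1f* had 3 to 9 UMIs in each P0 retina's photoreceptors, or 3.43, 4.45, 2.66, 2.84 and 2.88 CPM. Rods had 111, 90.6, 92.6, 115 and 83.7 CPM, cones 50.9 to 135 CPM and bipolar cells 116 to 202 CPM. All P14 values lay far above all P0 values, on the log2 scale by 5.03 (SE 0.17) in rods, 4.63 (SE 0.28) in cones and 5.32 (SE 0.23) in bipolar cells. These differences are a description, since the filter on low counts set their direction. *Cacna2d4*, the auxiliary subunit, was already present at P0, at 38.4, 28.2, 34.0, 50.2 and 36.1 CPM. It rose by 2.51 (SE 0.11) in rods, to 174 to 203 CPM, and by 2.08 (SE 0.16) in cones, to 135 to 175 CPM. Bipolar cells, at 359 to 449 CPM, were 3.33 (SE 0.13) above P0 photoreceptors. In the same P0 photoreceptors the pore subunit's level was 3.25 ± 0.729 CPM (SD, n = 5) and the auxiliary subunit's 37.4 ± 8.12 CPM (SD, n = 5). Since capture differs between genes, these 2 levels do not give the ratio of the pore to its partner.

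*Cabp4* showed the largest change of the 10. P0 photoreceptors held 11 *Cabp4* UMIs in all 5 retinas: 3, 0, 2, 3 and 3, or 2.06, 0, 1.06, 2.84 and 2.16 CPM. P14 rods had 435, 407, 340.5, 458 and 392 CPM, and cones had 537, 326, 439, 441 and 384 CPM. The rises were 8.26 (SE 0.19) in rods and 8.16 (SE 0.24) in cones, with no overlap of the groups. Since the filter on low counts set the direction, these values are a description. In bipolar cells *Cabp4* was at 19.6 to 60.9 CPM, 4.61 above P0 photoreceptors (SE 0.42), again as a description. That bipolar level was 8.81% of the rod level. In the same bipolar cells 6 rod markers (*Nrl*, *Nr2e3*, *Gnat1*, *Pde6a*, *Pde6b* and *Sag*) were at 8.78% to 14.6% of their rod level. The *Cabp4* value lies within that range, and the part of rod RNA in it was not tested.

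The priming factor *Unc13b* had 36.3, 40.1, 23.4, 37.9 and 33.2 CPM in P0 photoreceptors. It rose by 2.76 (SE 0.11) in rods and by 2.39 (SE 0.16) in cones. Bipolar cells, with 409, 339, 442, 548 and 339 CPM in the 5 retinas, were 3.53 (SE 0.16) above P0 photoreceptors. All of these differences had an edgeR adjusted p of 1.29e-12 or less. *Stx3* was at 85.7, 98.4, 123, 124 and 139 CPM in P0 photoreceptors. In rods it had 824, 854, 725, 879.8 and 724 CPM and in cones 773, 800.2, 787, 846 and 888 CPM, so both types sat between 724 and 888 CPM. The rises were 2.99 (SE 0.11) in rods and 2.88 (SE 0.11) in cones. Bipolar cells, at 332 to 420.1 CPM, were 1.66 (SE 0.12) above P0 photoreceptors. Each of these *Stx3* differences had an edgeR adjusted p of 6.84e-11 or less.

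The complexins, small proteins that clamp and assist the fusion machinery, moved in opposite directions in rods. *Cplx3* had 217, 154, 200.3, 182 and 226 CPM in P0 photoreceptors and 102, 87.1, 103, 80.9 and 99.6 CPM in P14 rods. Every rod value was below every P0 value, and the gene fell by 0.88 on the log2 scale (SE 0.10, edgeR adjusted p = 1.21e-07). In cones it rose by 1.74 (SE 0.11, edgeR adjusted p = 2.38e-13), to 562, 617, 629.7, 661 and 752 CPM. Bipolar cells, at 1002, 1145, 980.3, 762 and 1072 CPM, were 2.27 above P0 photoreceptors (SE 0.13, edgeR adjusted p = 1e-12). *Cplx4* went from 9.60, 8.90, 10.1, 5.69 and 7.93 CPM in P0 photoreceptors to 859.9, 816, 934, 881 and 823 CPM in rods, a rise of 6.79 (SE 0.11, edgeR adjusted p = 4.34e-21). In cones it rose by 5.86 (SE 0.15), to 394 to 609 CPM, a description since the filter set the direction there. Bipolar cells, at 80.3 to 189 CPM, were 3.59 (SE 0.21) above P0 photoreceptors. The bipolar level was 13.8% of the rod level, within the 8.78% to 14.6% seen for the rod markers in bipolar cells. The P0 photoreceptors pool future rods and cones, and the share of each in them was not measured. The 5 primary progenitor markers summed to 1044 to 1830 CPM in P0 photoreceptors, against 4938 to 5347 CPM in P0 primary progenitors and 16.8 to 48.0 CPM in P14 rods, and their part in the changes from P0 was not tested.

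**Figure D3:**
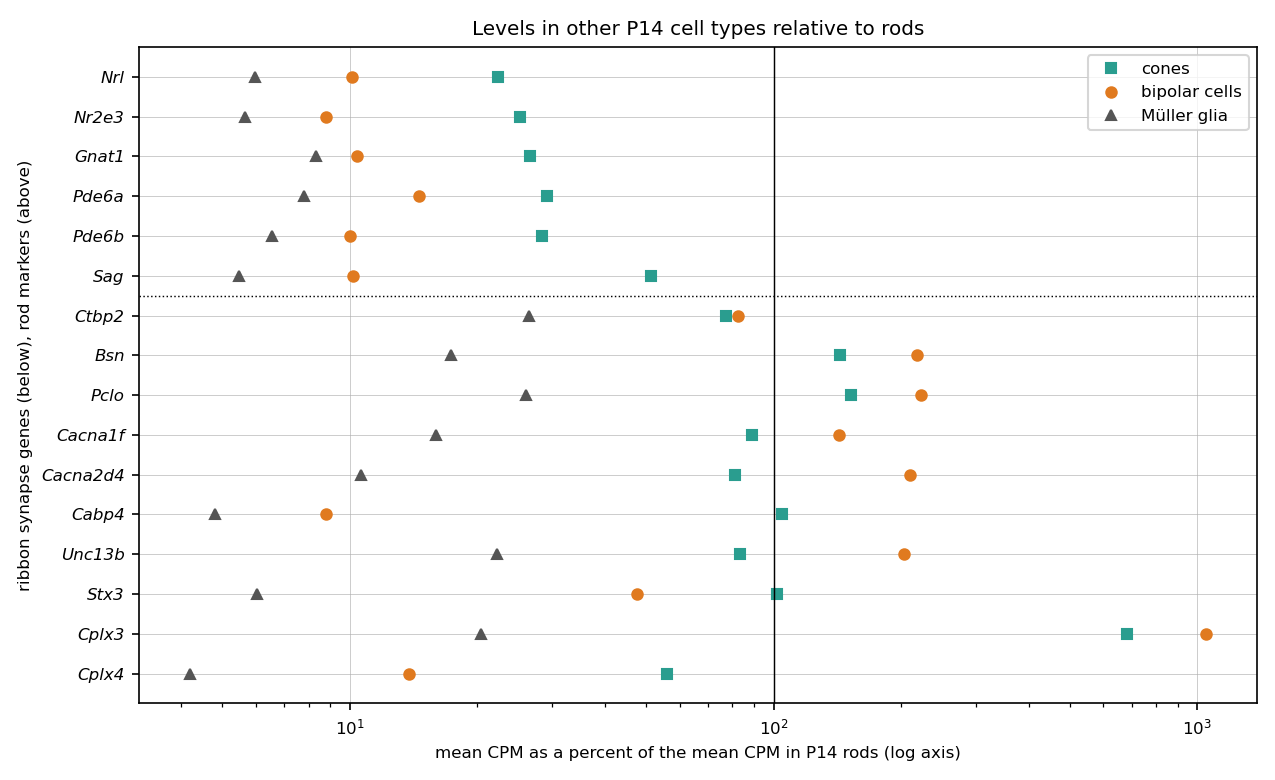
Mean CPM in P14 cones, bipolar cells and Müller glia as a percent of the mean in P14 rods (log axis), for 6 rod markers (above the dotted line) and the 10 ribbon genes (below it). *Cabp4* and *Cplx4* in bipolar cells, at 8.81% and 13.8%, fall among the rod markers, and in bipolar cells the other 8 genes lie to the right of them.

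Rod RNA in other types bears on several P14 values. In Müller glia, which form no ribbons, the rod markers were at 5.47% to 8.31% of their rod level, *Cabp4* at 4.81%, *Cplx4* at 4.20% and *Stx3* at 6.05%. The other 7 genes were above the marker range there, from *Cacna2d4* at 10.6% to *Ctbp2* at 26.5%. In cones the rod markers ranged from 22.4% to 51.4% of the rod level, with *Sag* the highest and the next, *Pde6a*, at 29.2%. *Cabp4* in cones was at 104.7%, *Stx3* at 102.2% and *Cplx4* at 56.2%. In the other direction, 8 bipolar markers were at 1.26% to 11.7% of their bipolar level in rods. *Prkca* was the highest, and the next, *Grm6*, was at 4.89%. *Cplx3* in rods was at 9.53% of its bipolar level, above all of these markers but *Prkca*. The part of this shared RNA in each result was not tested.

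At P14 the next question was how rods, cones and bipolar cells differ from each other. These comparisons were made within retinas, with the retina as a block. Rods against bipolar cells separated the list in both directions: *Ctbp2*, *Cabp4*, *Stx3* and *Cplx4* were higher in rods, *Bsn*, *Pclo*, *Cacna2d4*, *Unc13b* and *Cplx3* were higher in bipolar cells, and *Cacna1f* did not pass. Of all 10135 genes tested 60.5% passed, 29.9% higher and 30.5% lower in rods (3033 and 3096 genes). With total UMIs as the scale in place of TMM the split was 2142 higher and 4056 lower, and the median of all genes moved from 0.02 to -0.23. None of the 10 genes changed direction.

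*Cplx4* and *Cplx3* gave the opposite ends, 3.18 (SE 0.13) higher and 3.15 (SE 0.12) lower in rods than in bipolar cells (edgeR adjusted p = 6.05e-25 and 1.2e-26). *Cabp4* was 3.66 higher (SE 0.15, edgeR adjusted p = 1.12e-24), with a bipolar level, as a percent of the rod level, in the range of the rod markers. *Stx3* was 1.33 higher (SE 0.11) and *Ctbp2* 0.53 higher (SE 0.12, edgeR adjusted p = 0.000117). *Bsn* was lower by 0.94 (SE 0.21), *Pclo* by 0.90 (SE 0.12), *Cacna2d4* by 0.81 (SE 0.10) and *Unc13b* by 0.75 (SE 0.11), with edgeR adjusted p of 0.000176 or less. For *Cacna1f* the difference was -0.27 (95% interval -0.51 to -0.03, edgeR adjusted p = 0.0502), and it passed in 5 alternatives, with adjusted p from 0.00024 with total UMIs as the scale to 0.049 without the second heterozygous retina, among them the fit without the block (adjusted p = 0.0273).

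Rods and cones were closer. Of the 10 genes *Cplx4* (0.83, SE 0.10), *Ctbp2* (0.43, SE 0.12) and *Cacna2d4* (0.34, SE 0.13) were higher in rods, and *Cplx3* (-2.72, SE 0.10) and *Pclo* (-0.54, SE 0.15) were higher in cones, where 27.9% of 7880 genes passed (12.9% higher and 15% lower in rods). *Cacna2d4*, at an edgeR adjusted p of 0.0385, was lost in 7 alternatives, among them DESeq2 (adjusted p = 0.193), and *Ctbp2* was lost with DESeq2 (adjusted p = 0.0573) and without the first P14 heterozygous retina (adjusted p = 0.064). *Cabp4* and *Stx3* differed by -0.01 (95% interval -0.22 to 0.19) and 0.02 (95% interval -0.17 to 0.20), with edgeR adjusted p = 0.944 and 0.927. The cone sums come from 11 to 34 cells per retina, and the part of the rod RNA found in cones was not tested.

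Between cones and bipolar cells, 50.6% of 7124 genes passed (22.4% higher and 28.2% lower in cones). *Cabp4* (3.52, SE 0.17), *Cplx4* (2.20, SE 0.15) and *Stx3* (1.15, SE 0.13) were higher in cones, and *Cacna2d4* (-1.32, SE 0.15), *Unc13b* (-1.22, SE 0.15), *Cacna1f* (-0.78, SE 0.19), *Cplx3* (-0.58, SE 0.13) and *Pclo* (-0.53, SE 0.17) were higher in bipolar cells. *Bsn* (-0.73, edgeR adjusted p = 0.0549) and *Ctbp2* (-0.09, edgeR adjusted p = 0.66) did not pass. *Pclo* was lost with DESeq2 (adjusted p = 0.0728) and without the first P14 heterozygous retina (edgeR adjusted p = 0.0652). *Bsn* passed with DESeq2 size factors, with total UMIs as the scale and without the second heterozygous retina (edgeR adjusted p = 0.0477, 0.0355 and 0.0268). It reached the filter on low counts in 1 cone sum and 4 bipolar sums, and entered the test only through bipolar cells.

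**Figure D4:**
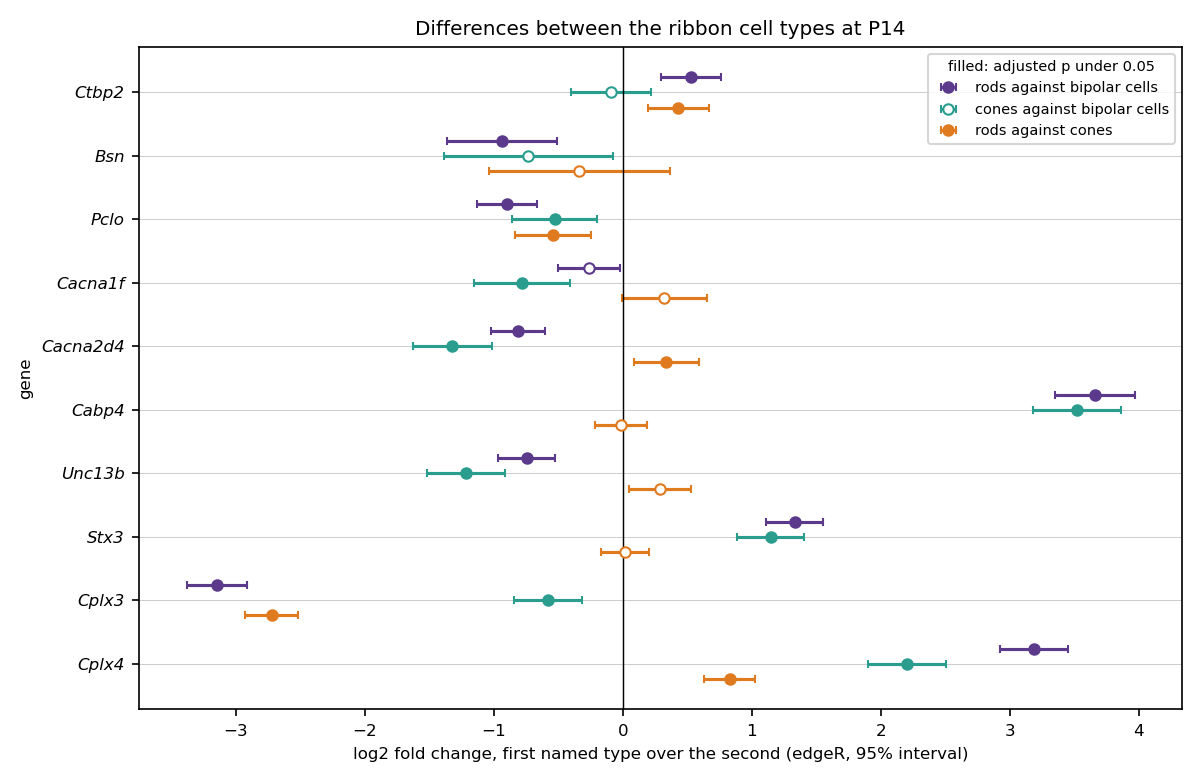
Differences of the 10 genes between rods, cones and bipolar cells at P14 on the log2 scale, with 95% intervals of the edgeR fit with the retina as a block; filled points passed the threshold. *Cplx4* and *Cabp4* lie to the right and *Cplx3* to the left where rods are compared with bipolar cells, at 3.18, 3.66 and -3.15.

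Amacrine cells, which make conventional synapses without ribbons, served as a neuronal reference, and only 3 retinas had at least 5 of them (1 wild type and 2 labelled knockout, with 15 to 23 cells). Against these, 8 of the 10 genes were higher in bipolar cells: *Cacna2d4* by 4.25 (SE 0.51), *Cacna1f* by 3.32 (SE 0.49), *Unc13b* by 2.19 (SE 0.44), *Cplx4* by 2.04 (SE 0.45), *Stx3* by 1.97 (SE 0.42), *Cabp4* by 1.61 (SE 0.58), *Cplx3* by 1.57 (SE 0.47) and *Ctbp2* by 1.47 (SE 0.39). Of all 7708 genes tested 20.1% passed (9.06% higher and 11.1% lower in bipolar cells). *Bsn*, at 40.2, 124 and 58.4 CPM in amacrine cells, and *Pclo*, at 108, 287 and 250.2 CPM, both of which also serve conventional active zones, differed by -0.73 (SE 0.37, edgeR adjusted p = 0.173) and -0.21 (SE 0.37, edgeR adjusted p = 0.776). The count was 5 without the 5% of cells with the most UMIs and 4 without the wild type retina or without the second retina labelled knockout. *Cplx3* in amacrine cells was uneven, at 152, 186 and 822 CPM. The 3 amacrine sums held only 8 UMIs of *Cabp4*, 9 of *Cacna1f*, 13 of *Cacna2d4* and 15 of *Cplx4*. *Cabp4* and *Cacna1f* reached the filter on low counts in 1 of these sums and entered the test only through bipolar cells. The filter thus set their direction, and their values are a description, although the count of 8 genes includes them. In amacrine cells *Cabp4* and *Cplx4* were at 3.74% and 3.12% of their rod level, and 6 rod markers at 2.87% to 7.29%. In bipolar cells the 2 genes were at 8.81% and 13.8%, and the rod markers at 8.78% to 14.6%. The part of rod RNA in these 2 differences was not tested. The amacrine sums also held markers of other types: over all their P14 sums the horizontal cell markers came to 504 to 1086 CPM and the ganglion cell markers to 292 to 730.4 CPM, beside 1838 to 2736 CPM for amacrine markers, while in bipolar cells the horizontal and ganglion cell markers came to at most 25.4 and 26.9 CPM. Their part in the result was not tested.

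Within gene families, the share of the ribbon member was higher in P14 rods and cones than in P0 photoreceptors for each family below but the complexin *Cplx3* in rods. The values that follow are shares of a family's UMIs, means over retinas, given as a description with no test, and since capture differs between genes they compare cell types better than genes. Of the complexin UMIs of P0 photoreceptors, *Cplx2* took 66.4% ± 2.6 (SD, n = 5), *Cplx3* 31.0% ± 2.6 and *Cplx4* 1.34% ± 0.26. In P14 rods *Cplx4* took 88.4% ± 1.2 and *Cplx2* 1.67% ± 0.41, in cones *Cplx3* and *Cplx4* took 54.7% ± 5.8 and 41.0% ± 5.7, and in bipolar cells *Cplx3* took 85.7% ± 3.1. The fall of *Cplx2* from P0 photoreceptors to rods was 4.47 on the log2 scale (SE 0.11, edgeR adjusted p = 1.22e-18).

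Among the pore subunits of L-type, P/Q-type and N-type channels, *Cacna1a* took 74.3% ± 3.3 (SD, n = 5) of the UMIs in P0 photoreceptors and *Cacna1f* 6.01% ± 1.3. By P14 *Cacna1f* held 87.1% ± 5.2 in rods and 88.3% ± 4.1 in cones, whereas in bipolar cells *Cacna1d*, another L-type pore subunit, held 61.2% ± 5.5 and *Cacna1f* 24.6% ± 3.2. *Cacna2d4* took 39.8% ± 5.1 of the α2δ UMIs in P0 photoreceptors, 86.7% ± 2.8 in rods, 76.8% ± 17 in cones and 46.0% ± 1.4 in bipolar cells, where *Cacna2d3* took 32.9% ± 4.6. *Cabp4* went from 2.93% ± 2.4 of the CaBP UMIs to 94.7% ± 0.73 in rods and 84.1% ± 5.8 in cones. In bipolar cells *Cabp5*, a bipolar marker itself, took 65.5% ± 4.0 and *Cabp4* 5.68% ± 2.8.

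**Figure D5:**
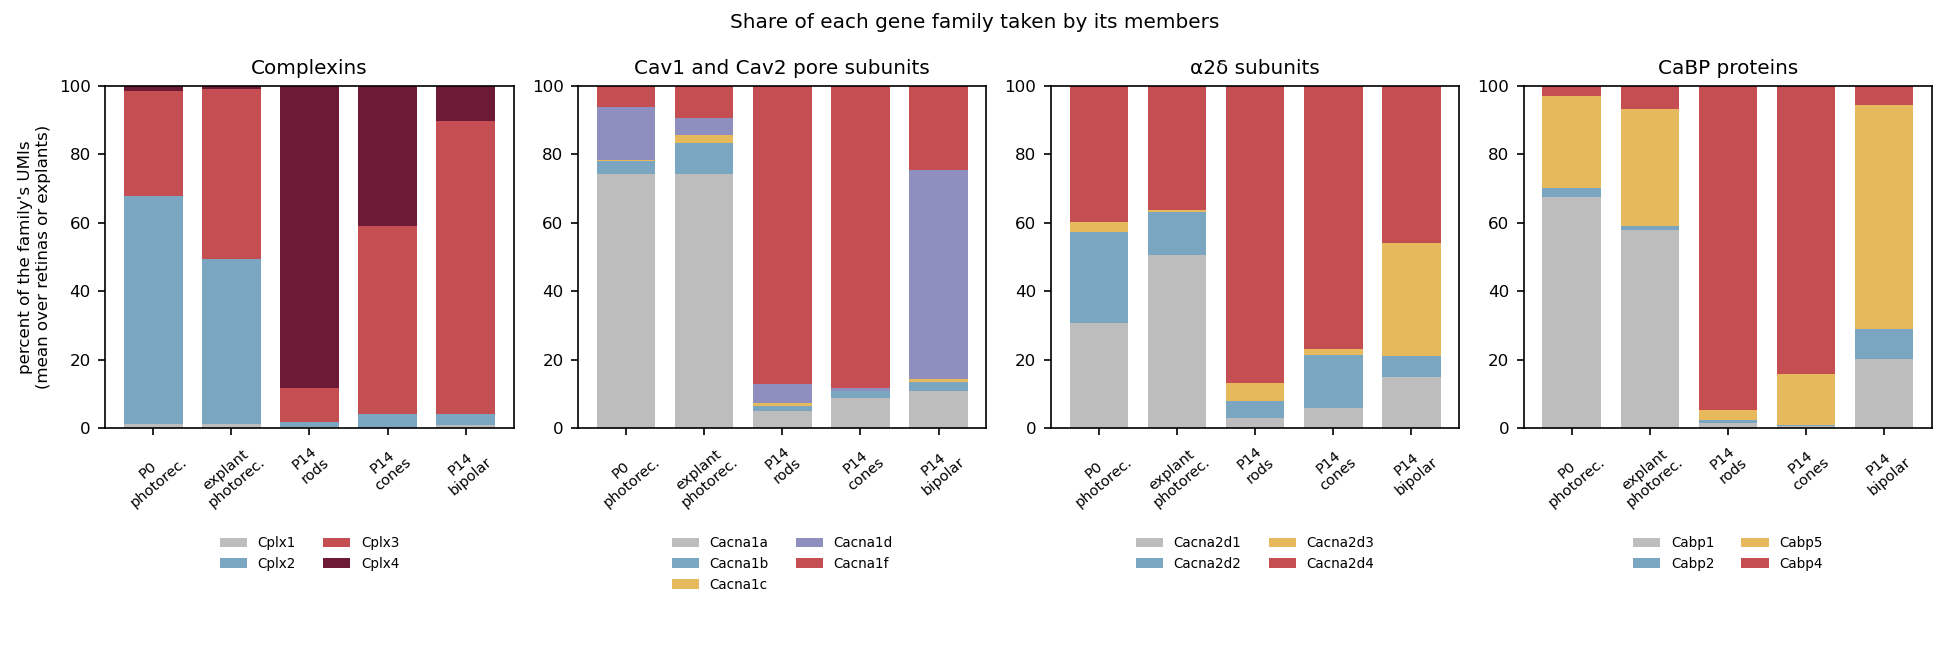
Share of each family's UMIs (percent, mean over 5 retinas or 8 explants) taken by each gene in P0, explant and P14 cell types; ribbon genes are in red shades at the top of each bar. *Cplx4* fills 88.4% of the complexin bar in rods and *Cplx3* 85.7% in bipolar cells, and *Cabp4* and *Cacna1f* fill most of their bars in rods and cones and not in bipolar cells.

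*Unc13b* went from 59.7% ± 7.8 of the Munc13 UMIs in P0 photoreceptors to 89.7% ± 1.1 in rods and 90.1% ± 2.7 in cones, and stood at 58.5% ± 7.9 in bipolar cells, where *Unc13c* took 35.0% ± 8.7. *Ctbp2* went from 46.8% ± 4.1 of the CtBP UMIs to 82.0% ± 1.8 in rods, and its paralog *Ctbp1* fell by 1.53 on the log2 scale (SE 0.08, edgeR adjusted p = 4.34e-13).

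Counted per cell, at 2000 UMIs in every cell, *Cplx4*, *Cplx3*, *Cabp4* and *Stx3* separated some of the types, while the shares of *Ctbp2*, *Pclo* and *Bsn* lay closer together. Cells with fewer UMIs were left out: 8 P0 photoreceptors, 296 rods, 57 bipolar cells and 0 cones. A *Cplx4* UMI was found in 2.7% of P0 photoreceptors, 80.1% of rods, 61.7% of cones, 13.1% of bipolar cells and 6.5% of Müller glia (unthinned, 5.1%, 88.6%, 87.8%, 25.8% and 22.2%, at median depths of 4534.5, 3374, 10245, 3939.5 and 15108 UMIs). For *Cplx3* the thinned shares were 33.1%, 15.4%, 70.4%, 73.3% and 4.4%, and for *Cabp4* 0.44%, 55.2%, 53.9%, 8.3% and 2.4%. *Stx3* UMIs were in 23.6% of P0 photoreceptors and in 79.7% of rods. *Ctbp2* was found in 30.9% of P0 photoreceptors, 36.8% of rods, 29.6% of cones and 33.8% of bipolar cells, and *Pclo* in 19.0%, 13.3%, 20.9% and 31.1%. *Bsn* was found in 3.1% of P0 photoreceptors, 2.7% of rods, 1.7% of cones and 6.3% of bipolar cells, against 1.6% of Müller glia, and in bipolar cells and Müller glia its levels were apart. Per cell, *Ctbp2* in cones, *Pclo* in rods and *Bsn* in rods and cones were thus not above their P0 shares.

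The levels before P14 show where the genes begin. Between photoreceptors and primary progenitors of the same P0 retinas, 67.9% of 11708 genes passed (34.4% higher and 33.5% lower in photoreceptors). *Stx3*, by 3.99 (SE 0.11), *Unc13b*, by 1.74 (SE 0.14), and *Ctbp2*, by 1.46 (SE 0.07), were higher in photoreceptors, and *Bsn* and *Pclo* also passed as higher. *Cplx3* was 6.15 (SE 0.12) higher. It reached the filter on low counts in 5 photoreceptor sums and 1 progenitor sum, and so entered the test only through photoreceptors. The filter thus set its direction, and its value is a description. *Cacna1f*, *Cacna2d4* and *Cplx4* reached the filter on low counts in no retina's progenitors and entered the test only through photoreceptors, so the filter set their direction, and *Cabp4* was not tested. In all 5 retinas *Cacna1f* had 26 UMIs in photoreceptors and 3 in progenitors, *Cacna2d4* 280 and 6, and *Cplx4* 68 and 51. The photoreceptor sums held 7804402 UMIs of all genes and the progenitor sums 26662821. Mean levels in the 2 types were thus 3.25 and 0.117 CPM for *Cacna1f*, 37.4 and 0.236 for *Cacna2d4*, and 8.44 and 1.92 for *Cplx4*. These genes were not confined to photoreceptors at P0: *Ctbp2* in amacrine cells, at 155 ± 11.2 CPM (SD, n = 5), overlapped its photoreceptor level of 156 ± 18.8 CPM, *Cplx3* had 108 ± 21 CPM in amacrine cells, and *Bsn* and *Pclo* were highest in amacrine or retinal ganglion cells, at 43.7 ± 5.1 CPM and 113 ± 16 CPM. *Cacna1f* and *Cacna2d4* had mean levels of at most 0.117 and 1.63 CPM in the other P0 types.

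In explants, 7 genes were tested between photoreceptors and primary progenitors, where 70.7% of 8983 genes passed (35.1% higher and 35.6% lower). *Stx3* was higher in photoreceptors by 4.18 (SE 0.15), and *Ctbp2*, *Pclo* and *Unc13b* also passed as higher. *Cplx3*, higher by 5.37 (SE 0.13), reached the filter on low counts in 8 photoreceptor sums and 1 progenitor sum. It thus entered the test only through photoreceptors, and its value is a description. *Cacna2d4* and *Cabp4*, with 4 and 3 UMIs in all explant primary progenitors, entered the test only through photoreceptors, so the filter set their direction. *Cabp4* had 6.26 to 15.0 CPM in explant photoreceptors, above the 0 to 2.84 CPM of P0 photoreceptors, a difference that was not tested. These levels rest on few counts, 2 to 14 UMIs per explant and 0 to 3 per P0 retina. Against P0 photoreceptors, 4 of the 6 genes tested were higher in the explants and none lower: *Pclo* by 1.09 (SE 0.11, edgeR adjusted p = 8.93e-10), *Cplx3* by 1.09 (SE 0.08, edgeR adjusted p = 2.05e-12), *Stx3* by 0.86 (SE 0.10, edgeR adjusted p = 1.28e-08) and *Ctbp2* by 0.57 (SE 0.07, edgeR adjusted p = 2.67e-07). *Cplx3* had a lowest, median and highest value of 394, 447.8 and 491 CPM over the 8 explants, above all 5 P0 retinas. *Cacna2d4* (-0.34, edgeR adjusted p = 0.114) and *Unc13b* (0.21, edgeR adjusted p = 0.284) did not pass, and 48% of the 7879 genes tested did (23.4% higher and 24.6% lower). Without the first P0 heterozygous retina *Cacna2d4* passed as lower in the explants (-0.44, edgeR adjusted p = 0.042). With total UMIs as the scale the split of all calls moved from 1844 higher and 1941 lower to 2509 and 1534. The summed level of 5 primary progenitor markers was 147 to 392 CPM in the explant photoreceptors and 1044 to 1830 CPM in the P0 photoreceptors, and its part in these differences was not tested. Culture, strain, agonist, the limit on genes per cell and library cannot be told apart here.

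No ribbon gene passed the threshold for genotype or for agonist dose. Between the retinas labelled knockout and the heterozygous retinas, 0 of 8 tested members passed in P0 photoreceptors, 0 of 10 in P14 rods and 0 of 10 in P14 bipolar cells by edgeR, where 0.0592% of 10129, 0.0106% of 9474 and 0.137% of 8787 genes passed. Their log2 differences ran from -0.44 (*Cplx4*) to 0.47 (*Cacna2d4*) in P0 photoreceptors, from -0.21 (*Ctbp2*) to 0.19 (*Bsn*) in rods and from -0.60 (*Cplx4*) to 0.53 (*Bsn*) in bipolar cells. None of these members had an unadjusted p under 0.05 (696, 274 and 303 of all genes did), DESeq2 also called 0, and the *Sstr2* counts above were not lower in the retinas labelled knockout. With 2 retinas on each side the intervals were wide for sparse genes, from -1.25 to 0.04 for *Cplx4* in bipolar cells, and narrower for abundant ones, from -0.28 to 0.16 for *Cplx4* in rods. Between 500 nM and 0 nM agonist, 0 of 6 tested members passed in explant photoreceptors, where 0.0941% of 7440 genes did, with differences from -0.45 (*Cacna2d4*) to 0.17 (*Unc13b*). No member had an unadjusted p under 0.05 there (421 of all genes did), and DESeq2 called 0.

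Other genes of the synapse, taken from lists made for comparison, were also counted between P0 photoreceptors and P14 rods, where 72.8% of all genes passed, 36.8% higher and 36% lower in rods. Of 8 tested synaptic vesicle genes 7 rose and 1 fell, with the vesicular glutamate transporter *Slc17a7* up by 5.13 (SE 0.10) and *Syngr1* by 2.46 (SE 0.10). *Synpr*, counted among the rises, was 3.16 (SE 0.32) higher in rods, at 9.62 to 18.7 CPM against 0.72 to 2.47 CPM at P0. It lay under the filter on low counts in every P0 retina, so the filter set its direction and its value is a description. In Müller glia *Synpr* had 347 to 492.6 CPM. Of 10 tested fusion genes 7 rose and 1 fell, with *Napb* up by 2.49 (SE 0.14) and *Nsf* by 2.44 (SE 0.09). Of 10 endocytosis genes 8 rose, among them dynamin *Dnm1* by 3.60 (SE 0.17) and endophilin *Sh3gl2* by 3.31 (SE 0.13), and the clathrin light chain *Cltb* fell by 5.63 (SE 0.11), to 11.0 to 12.0 CPM in rods against 383 to 562 CPM in cones and 398 to 447 CPM in bipolar cells.

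Of 11 tested genes of the synaptic cleft and of adhesion 7 rose and 3 fell, with the leucine-rich repeat proteins *Lrit1* and *Lrit2* up by 4.15 (SE 0.11) and 3.16 (SE 0.13) and *Elfn1*, the rod partner of bipolar cell glutamate receptors, up by 2.11 (SE 0.13). *Elfn1* was at 74.6 to 87.6 CPM in rods, a range inside that of cones (45.2 to 94.5 CPM), and at 3.36 to 7.94 CPM in bipolar cells. Of 9 tested channel genes 2 rose and 5 fell, against the same 36.8% and 36% of all genes. The β subunit *Cacnb2*, counted as a rise, went from at most 3.46 CPM to 167 to 209 CPM, by 7.14 (SE 0.20). It lay under the filter on low counts in every P0 retina and entered the test only through rods. The filter thus set its direction, and its value is a description. *Cacna1a* and *Cacnb3*, counted among the falls, were lower in rods by 2.67 (SE 0.20) and 2.96 (SE 0.40). *Cacna1a* had 2.53 to 7.22 CPM in rods and 33.9 to 48.3 at P0, and *Cacnb3* 0.75 to 7.22 and 10.8 to 19.3. Both were too low in rods to pass the filter there and entered the test only through P0 photoreceptors. The filter thus set their direction too, and their values are a description. Of 7 tested scaffold genes 2 rose and 1 fell, with *Rims2* up by 2.73 (SE 0.09) and *Unc119* by 2.34 (SE 0.06). None of the 3 synapsins, which ribbon synapses lack, passed the filter on low counts in this comparison, although 2 passed it between P14 rods and bipolar cells. The medians of these lists were 1.42 for vesicle, 1.33 for fusion, 1.68 for endocytosis, 1.07 for cleft, -1.04 for channel and 0.31 for scaffold genes, against 0.02 for all genes. The vesicle median includes *Synpr*, and the channel median includes *Cacnb2*, *Cacna1a* and *Cacnb3*.

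Over the mean log2(CPM + 1) in the 15 cell types of the 3 libraries, some genes followed the members closely. These correlations across types are a description, over types that share libraries, among 10320 genes. *Cabp4* was most like *Pla2r1*, *Grk1* and *Rdh12* (Pearson's r = 0.99, 0.99 and 0.99), *Cplx4* most like *Gucy2e*, *Slco4a1* and *Pla2r1* (0.99, 0.98 and 0.98), and *Stx3* most like *Mef2d*, *Eps8* and *Slc1a7* (0.98, 0.98 and 0.97). For *Cacna1f* the closest were *Plk5*, *Rgs9bp* and *Icmt* (0.98, 0.98 and 0.98) and for *Cacna2d4* *Lrit2*, *Slc1a7* and *Slc17a7* (0.97, 0.97 and 0.97). *Pclo* was most like *Ppfia2*, *Dnajc6* and *Srrm3* (0.97, 0.95 and 0.94), and *Bsn* most like *Gdap1*, *Mapk8ip2* and *Klc1* (0.95, 0.95 and 0.95). The closest to *Cplx3* were *E130102H24Rik*, *Unc80* and *Eml5* (0.96, 0.93 and 0.92), to *Unc13b* *Gm45159* and *4932438A13Rik* (0.96 and 0.96), and to *Ctbp2* *Med13*, *Ccnj* and *Polr2a* (0.94, 0.92 and 0.91). *Bsn* and *Cplx4* were the least alike pair of the list (r = 0.01), and *Cabp4* and *Cplx4* were the most alike (r = 0.98).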

How the data were processed

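The 3 libraries were deposited as raw UMI counts per gene and cell, with a table that gives each cell's multiplexing barcode, condition and cell type. According to the labels, the study's methods and the submitters' processing notes, the authors made these counts with Cell Ranger (3.1.0, mm10) from 10x 3′ libraries, assigned cells to samples by their MULTI-seq barcodes and annotated clusters in Seurat (3). The corrected expression matrices that were also deposited were not used. The 10 genes, the other gene lists and the tests were chosen with earlier results of these data known.

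Counts were summed per retina or explant and cell type, for sums of at least 5 cells, which left out P14 amacrine cells of both heterozygous retinas. CPM are UMIs of a gene after scaling such a sum to 1000000 UMIs. Sums were tested across all genes with edgeR (4.0.16, R 4.3.3, limma 3.58.1): TMM scaling, filterByExpr, the quasi-likelihood test, two-sided, and Benjamini-Hochberg adjustment at 0.05. Types of 1 library were compared with the retina or explant as a block, since both sums come from the same sample. The fits were tested on simulated data. In the genotype and dose comparisons all 3 genotypes or 4 doses entered the fit. Samples are littermates or explants numbered by barcode order, and where they did not come from separate animals the p-values measure a spread that may be technical. No doublet caller was run. Cell shares were taken after thinning to 2000 UMIs per cell. Rod RNA in other types was described with 6 rod markers.

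Besides the members, the text names the 3 genes with the largest change in rods against P0 photoreceptors from each list of other synapse genes, the paralogs of the members, and the 3 genes most like each member among genes of at least 20 CPM in a type. Results that need some items are not reported here. Alternatives were DESeq2 (1.42.0), its size factors, total UMIs, no filter on low counts, sums of at least 10 cells, no 5% of cells with the most UMIs, no block, genotype as a covariate, no retinas labelled knockout, knockout against all others, and each sample left out in turn. Python 3.11.15 was used for levels and figures.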

Additional observations from a re-analysis of the deposited data

Results flagged for a closer look

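Among 50 groups of 5 or 8 samples in which the highest and lowest values were checked, 2 held a sample far from the others, where chance alone marks about 1 group in 20. *Bsn* in explant photoreceptors had 29.8 CPM in the second 500 nM explant, from 15 UMIs, against 6.26 to 12.0 CPM in the other 7 explants. *Cacna2d4* in P14 bipolar cells had 449 CPM in the first retina labelled knockout, against 359 to 384 CPM in the other 4 retinas. The direction of the *Ctbp2* difference between retinas labelled knockout and heterozygous retinas was opposite in the 2 ages: in P0 photoreceptors the retinas labelled knockout were 26.5 CPM higher on average (158 and 188 against 145 and 148 CPM), and in P14 rods the difference was -30.7 CPM (236 and 232 against 279.6 and 250.2 CPM). The difference between the ages was not tested, neither difference passed the threshold, and *Sstr2* counts were not lower in the retinas labelled knockout. All 10 genes were searched for such opposite directions over pairs of P0 photoreceptors, P14 rods and P14 bipolar cells, and only *Ctbp2* was flagged. How many such cases chance alone gives was not computed.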

How the results depend on the processing

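Of 1730 values of single genes under the alternatives, 1637 kept their direction and their side of the threshold, 36 lost and 13 gained it, and 44 changed direction, none of which had passed in either fit; the causes were not tested. Of the 10 ribbon genes, rods and cones differed in 3 with DESeq2 and in 3 to 5 with a retina left out (3 without the first heterozygous retina). Bipolar and amacrine cells differed in 5 without the 5% of cells with the most UMIs, in 6 with no retina block, and in 4 to 7 with a retina left out (4 without the wild type and 4 without the second retina labelled knockout), against 8; over all genes this comparison gave 918 with DESeq2, 875 without the 5% of cells and 804 to 1744 with a retina left out (831 without the wild type, 804 without the second labelled knockout), against 1552. Genotype gave 120 genes with no filter, 63 without the 5% of cells, 2 with wild type pooled in and 5 to 88 with a retina left out in P0 photoreceptors, against 6 (25 without the first heterozygous, 88 and 16 without the first and second labelled knockout). In rods it gave 18 with no filter and 0 to 26 with a retina left out, against 1 (8 and 26 without the first and second heterozygous, 0 without the second labelled knockout). In bipolar cells it gave 1 with DESeq2, 19 with no filter, 4 without the 5% of cells, 1 with wild type pooled in and 3 to 61 with a retina left out, against 12 (3 without the wild type, 7 without the second heterozygous, 61 without the second labelled knockout). Dose gave 0 with DESeq2, 12 with no filter and 4 to 22 with an explant left out, against 7 (4 without the first 0 nM and 22 without the first 500 nM explant). With 1 sample left in an arm, it is assumed to vary like the other groups. Direction changed, on the log2 scale, for *Stx3* between rods and cones (-0.018 with total UMIs, -0.014 with no block, -0.013 to 0.079 with a retina left out) and *Cabp4* (0.069 with no filter, -0.094 to 0.091), for *Ctbp2* between cones and bipolar cells (-0.26 to 0.0092) and for *Pclo* between bipolar and amacrine cells (-0.65 to 0.035). For genotype in P0 photoreceptors it changed with a retina left out in *Bsn* (-0.23 to 0.48), *Pclo* (-0.15 to 0.49) and *Unc13b* (-0.18 to 0.60). For genotype in rods it changed in *Stx3* (0.016 with total UMIs, -0.15 to 0.12), *Cacna2d4* (-0.017 without the 5% of cells), *Bsn* (-0.017 with wild type pooled in, -0.32 to 0.55), *Cacna1f* (-0.0076 with wild type pooled in, -0.14 to 0.31), *Unc13b* (-0.020 with wild type pooled in, -0.038 to 0.10), *Cplx3* (-0.24 to 0.077) and *Cplx4* (-0.17 to 0.052). For genotype in bipolar cells it changed in *Pclo* (0.039 without the 5% of cells, -0.32 to 0.044), *Cabp4* (-0.46 with wild type pooled in, -0.52 to 0.62), *Ctbp2* (-0.56 to 0.34), *Cacna1f* (-0.059 to 0.77), *Unc13b* (-0.18 to 0.54), *Stx3* (-0.26 to 0.0059) and *Cplx3* (-0.47 to 1.5e-05). For dose it changed in *Pclo* (-0.15 to 0.12), *Ctbp2* (-0.048 to 0.10), *Cacna2d4* (-1.19 to 0.15) and *Unc13b* (-0.093 to 0.34). With no replicate block, *Cacna1f* in rods against bipolar cells was at -0.36 (edgeR adjusted p = 0.0273). No paired analysis was possible because the cell tables record no replicate number that links retinas or explants of different groups, so the planned block for genotype and dose was not run. Sums of at least 10 cells left the counts as they were. Depth limited *Bsn* in cones (27 UMIs) and *Cabp4* and *Cacna1f* in P0 photoreceptors (11 and 26 UMIs).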
